A study of Caenorhabditis briggsae with 13 samples.

Results

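In embryos of the nematode Caenorhabditis briggsae, 76 of 19528 genes on the array were low through the 4-cell, 28-cell and 55-cell stages, came up at 95 cells and were still up at 190 cells. They were chosen by their stage means. A level is the log2 intensity of a spot minus the 75th percentile of its array, averaged over a gene's probes and then over the arrays of a stage, so that 0 is the 75th percentile of all probes of the array. A chosen gene had a level of at most -2 at 4 cells and had risen by less than 1 at 28 cells and at 55 cells relative to 4 cells. It was at least 2 higher at 95 cells than at 55 cells, fell by no more than 0.5 from there, and stood at -1 or above at 190 cells. All 5 stage means therefore entered the choice, and the levels and steps below describe these genes without testing them.

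The series holds 13 one-colour Cy3 arrays of strain AF16, each hybridised with RNA from 50 whole embryos that had been amplified by in vitro transcription in successive rounds. The groups were 4-cell embryos (0 min, 2 arrays), 28-cell embryos (55 min after the 4-cell stage, 3 arrays), 55-cell embryos (80 min, 3 arrays), 95-cell embryos (120 min, 2 arrays) and 190-cell embryos (160 min, 3 arrays), with no treatment or mutation. Per the labels, arrays of a stage were separate biological samples of pooled embryos, and poor amplification left 2 arrays at 4 and 95 cells. In RNA from whole embryos, transcription in a few cells and weak transcription in many cannot be told apart.

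A nematode embryo starts on transcripts that the mother loaded into the egg, and its own transcription begins during the first cleavages. Cells divide in a fixed lineage, move inside during gastrulation and are committed step by step to intestine, muscle, pharynx, skin and nerve. Genes that are silent through early cleavage and then stay on are a class in which tissue regulators and the first products of tissues are often found in C. elegans. The gene numbers printed on the array (WBGene identifiers) could not be paired with names: none of the 22727 genes of the RefSeq table of the CB4 assembly carries such a number. Function is therefore given for no gene, embryo markers could not be checked, and the genes singled out are given by number only.

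Before the results, 3 properties of the arrays matter. A second label, the stage tag, contradicted the title of 4 arrays by giving them all as 4-cell embryos (1 array each at 28, 55, 95 and 190 cells), and the titles were followed. The scanner output filed under 28-cell C was a copy of that of 190-cell C, while its column of the series table held other values, so 28-cell C has levels but no detection flags. Arrays 55-cell C, 95-cell B and 190-cell C were scanned on a second date and detected more: 64.9% to 67.9% of probes were well above background on them, against 39.7% to 56.5% on the 9 arrays of the first date.

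By the choice, all 76 genes rose between 55 and 95 cells. Their median level was -4.20 and -4.33 on the 4-cell arrays, between -5.10 and -4.89 on the 28-cell arrays, and between -4.85 and -4.66 on the 55-cell arrays. It was -1.15 and -1.30 on the 95-cell arrays, and 0.15, 0.26 and 0.66 on the 190-cell arrays. The median of all genes stayed between -4.91 and -4.18 on the 13 arrays. Up to 55 cells the chosen genes thus sat near the middle of all genes, with a median percentile of 54.5 at 4 cells, 43 at 28 cells and 46.5 at 55 cells. At 4 cells this middle, -4.59, was under the lowest signals well above background, -3.748 and -3.538. At 28 cells the median of the 76 genes, -5.02, was under those signals too, -4.829 and -4.45. These ranks are therefore partly ranks of background signal. Their median percentile was 72.3 at 95 cells and 80.2 at 190 cells. The brightest reached the 97th and 97.9th percentile at these stages.

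**Figure D1:**
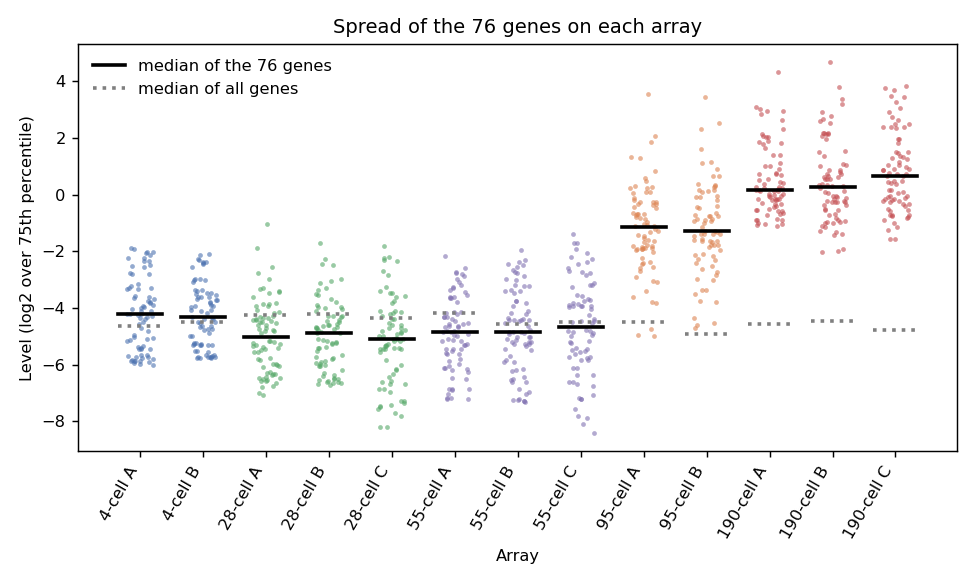
Level of each of the 76 genes (points) on each of the 13 arrays, in log2 over the 75th percentile of the array, coloured by stage; black bars are their median and dotted bars the median of all 19528 genes. The black bars lie between -5.10 and -4.20 up to 55 cells, at -1.15 and -1.30 at 95 cells and between 0.15 and 0.66 at 190 cells.

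Most of the choice was made by the step at 95 cells. Of 13481 genes at or below -2 at 4 cells, 10588 had also not risen by 1 at 28 or 55 cells. Only 181 of these were at least 2 higher at 95 cells than at 55 cells. That level was held by 163 of the 181, and 76 of the 163 reached -1 at 190 cells. Members just inside and genes just outside the limits were these. The smallest steps inside were 2.083 and 2.101, and the largest outside were 1.99 and 1.98. The lowest 190-cell levels inside were -0.989 and -0.985, and the nearest outside were -1.067 and -1.073. At 4 cells the highest levels inside were -2.074 and -2.085, and the nearest outside were -1.786 and -1.71. For the 55-cell minus 4-cell difference the highest inside were 0.955 and 0.909, and the nearest outside were 1.005 and 1.03.

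The rise from 55 to 95 cells had a median of 3.20 on the log2 scale over the 76 genes, with quartiles of 2.60 and 4.18 and a range from 2.08 to 10.79. The median of all genes was -0.15. In an alternative that changed the background correction to normexp with an offset of 50 on the median spot signal and left out 28-cell C, the 76 genes had a median rise of 1.59. Under it 27 genes met the rule, 6 of them among the 76. An offset added to every signal shrinks log2 differences between dim signals, so the limits of the rule are not like for like there. Steps are differences of levels as measured, also where a level lay under background, and those of genes undetected at 55 cells are given as bounds further on. In 46 genes the step was at least 3, in 21 at least 4, in 10 at least 5 and in 3 at least 6. In limma's moderated test over all genes, 75 of the 76 had a Benjamini-Hochberg adjusted p under 0.05 for a higher level at 95 than at 55 cells, where 3.03% of all genes did; 0 were called lower, where 4.59% were. Since this difference chose the genes, nothing follows from that count. The gene that missed, WBGene00029253, rose by 2.38 (SE 0.74, limma adjusted p = 0.0812). It is named because it was the single exception, after its value was seen. In all 76 genes both 95-cell arrays lay above all 3 55-cell arrays, as in 13.7% of all genes.

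WBGene00034398 had by far the largest step. Its level was -5.44 and -5.73 on the 4-cell arrays, -6.58, -5.53 and -6.69 at 28 cells, and -7.17, -6.87 and -7.88 at 55 cells. It was 3.53 and 3.44 at 95 cells and 4.31, 4.66 and 2.73 at 190 cells. No probe of it was well above background on any array with flags up to 55 cells, and at least 1 was on every later array, so the stages before and after are separated without overlap. The level in 95-cell embryos was 3.49 ± 0.07 (SD, n = 2), against -7.31 ± 0.51 (n = 3) in 55-cell embryos. Since the 55-cell level is only a bound, the rise is given as at least 483-fold, and that of 190-cell over 55-cell embryos as at least 642-fold. This bound sets the mean of the brighter stage against, on each dim array, the higher of the gene's own signal and the lowest signal well above background. Neither of its 2 probes was above background on a 55-cell array, so neither has a measured step of its own.

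WBGene00029570, with 5 probes, had the next largest step. It stood at -5.80 and -5.74 at 4 cells, at -5.98, -6.06 and -4.40 at 28 cells, and at -6.17, -4.77 and -4.98 at 55 cells. It reached 1.29 and 1.61 at 95 cells and 2.95, 2.61 and 3.84 at 190 cells. The 95-cell and 55-cell arrays were far apart, and all 190-cell arrays lay above both 95-cell arrays. The level was 1.45 ± 0.22 (SD, n = 2) in 95-cell embryos and -5.31 ± 0.75 (n = 3) in 55-cell embryos, which is 108-fold between the means over its probes. Only its D probe was above background on all 3 55-cell arrays, and that probe stepped by 5.72. The other 4 probes, above background on 1 or 2 of them, had differences of 6.92 to 7.19 that rest partly on signal under background.

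The smallest steps were those of WBGene00038257 and WBGene00041444. WBGene00038257 had levels of -3.34 and -3.60 at 4 cells and -3.94, -4.60 and -4.59 at 28 cells. It had levels of -3.66, -4.84 and -3.97 at 55 cells, -2.36 and -1.78 at 95 cells, and -0.32, -0.54 and 0.71 at 190 cells. Its 4.24-fold step at 95 cells was followed by a step of 2.03 on the log2 scale by 190 cells, so that its course was closer to a steady climb than to a switch. WBGene00041444 had levels of -3.93 and -3.53 at 4 cells and -4.30, -3.68 and -4.93 at 28 cells. It had levels of -3.61, -3.94 and -3.53 at 55 cells, -1.91 and -1.27 at 95 cells, and -1.10, -2.03 and 0.17 at 190 cells. Here the 190-cell arrays enclosed both 95-cell arrays. Each of these genes was above background on every array with flags, and in each the A probe stepped by more than 2 (2.45 and 2.62) and the B probe by less (1.71 and 1.58). The A probes were above background on only 2 and 1 of the 3 55-cell arrays, and the B probes on all 3.

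**Figure D2:**
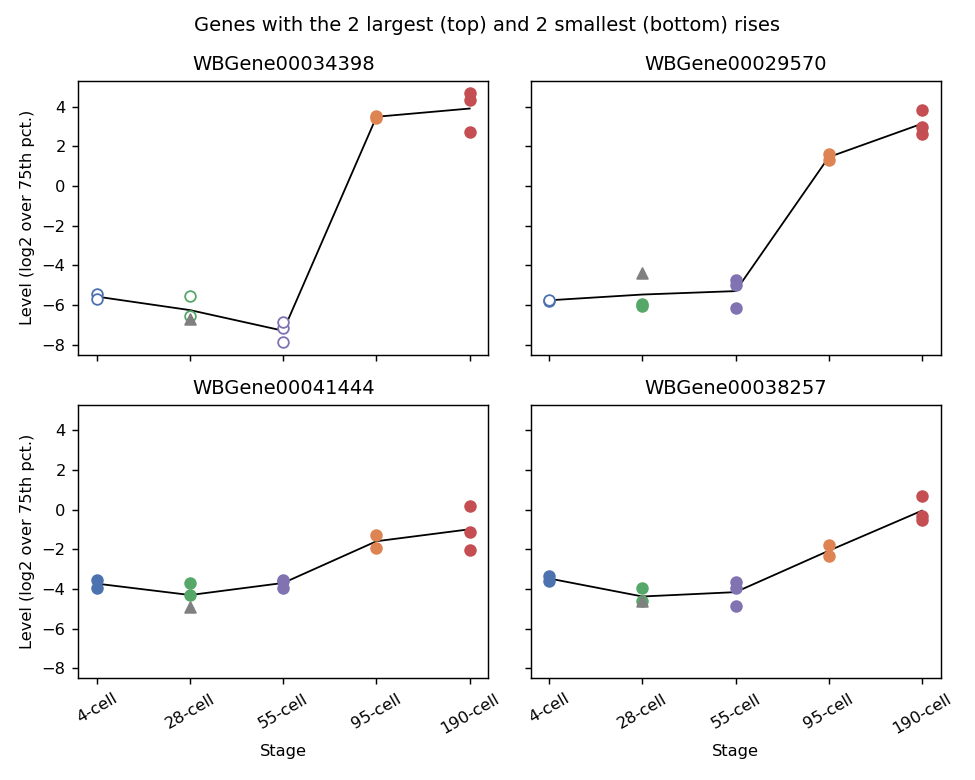
Level on each array (points) and stage mean (line) for the genes with the largest (top row) and smallest (bottom row) rise at 95 cells, in log2 over the 75th percentile of the array. Filled circles have a probe well above background, open circles have none, and grey triangles are 28-cell C, which has no flags; WBGene00034398 has open circles at every stage up to 55 cells.

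Low did not always mean undetected. At 4 cells 38 of the 76 genes had a probe well above background on both arrays, at 28 cells 43 on both arrays with flags, and at 55 cells 52 on all 3. The share of all genes at these stages was 47.3%, 60.5% and 61.6%. At 95 cells 75 of the 76 genes were detected on both arrays and at 190 cells all 76 on all 3, which the level required at 190 cells favours. Only 5 genes were undetected on every array with flags of the first 3 stages. The 28 genes with no probe above background on either 4-cell array, 22 at 28 cells and 8 at 55 cells moved with the sensitivity of the arrays: 55-cell C detected 68 of the 76 genes, against 56 and 57 on 55-cell A and B. The part of sensitivity in this decline was not tested.

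For the 8 genes undetected at 55 cells, the bounds on the rise in 95-cell over 55-cell embryos ran from 1.61-fold to 483-fold, with a median of 4.19-fold. The 1.61-fold is not a strict bound. It belongs to a gene detected on only 1 of the 2 95-cell arrays, so its 95-cell mean rests partly on signal under background. In 190-cell over 55-cell embryos the bounds of the 8 genes ran from 21.8-fold to 642-fold, with a median of 41.6-fold. Among the 52 genes with a probe above background on every array from 55 cells on, 95-cell over 55-cell embryos differed by 4.24-fold to 108-fold, with a median of 9.0-fold. The other 16 genes were above background on 1 or 2 of the 55-cell arrays. Their fitted folds, 4.81 to 61.2 with a median of 11.4, rest partly on signal under background. The folds of the 52 genes also average all probes of a gene, and some of those probes lay under background at 55 cells. The 108-fold, of WBGene00029570, is such a case. No spot of any of the 76 genes was saturated on the 12 arrays with flags.

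Several genes had a trace of transcript at 4 cells that was lower by 28 cells. Of the 38 genes detected on both 4-cell arrays, with levels from -4.95 to -2.07, 12 were at least 1 lower at 28 cells and 6 at least 2 lower. Of these, 6 and 2 were still above background on both 28-cell arrays with flags, and for the others the 28-cell level is not a measured one. No share over other genes was worked out beside these counts. The median difference of 28-cell minus 4-cell embryos was -0.73 in these 38 genes, against -0.28 in the 3195 genes at or below -2 that were detected on both 4-cell arrays. It was -0.75 in all 76 genes and -0.81 in all genes of the array. The rule capped rises at 28 cells in the 38 genes but not in the 3195, which bears on the difference between them. The 28-cell arrays also differ from the 4-cell arrays in sensitivity. Of all 76 genes, 17 were called lower and 1 higher at 28 than at 4 cells, where 20.6% and 13.1% of all genes were. Between 28 and 55 cells 9 were called higher and 2 lower, where 5.44% and 7.05% of all genes were.

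An example is WBGene00041360, named after its values were seen for the lowest 28-cell minus 4-cell difference, -3.42, although its undetected 28-cell level gives it no measured rank. Its level was -2.24 and -3.40 at 4 cells, -6.66, -6.62 and -5.46 at 28 cells and -6.86, -5.70 and -7.22 at 55 cells. It was -3.41 and -3.36 at 95 cells and -0.56, -1.0 and -0.72 at 190 cells. The gene was detected on both 4-cell arrays, on no flagged array of 28 or 55 cells, and on every array from 95 cells on, so its course was a dip rather than a silence. The 95-cell arrays lay close to the lower 4-cell array, while all 190-cell arrays lay above both 4-cell arrays. The rise of 190-cell over 55-cell embryos was at least 25-fold. The means of both probes fell from 4 to 28 cells and rose after 55 cells. At 4 cells the B probe averaged -4.21, below the lowest signals well above background there (-3.748 and -3.538). Detection at 4 cells thus rests at least in part on the A probe, at -1.44.

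After 95 cells most of the genes went on rising. The difference of 190-cell minus 95-cell embryos had a median of 1.77 on the log2 scale, with quartiles of 0.93 and 2.40 and a range from -0.45 to 6.65, against a median of -0.04 over all genes. It was under 0.5 in 11 genes, from 0.5 to under 2 in 32 and at least 2 in 33. Only 3 genes had a lower mean at 190 than at 95 cells. In limma's test 34 of the 76 were called higher at 190 than at 95 cells and 0 lower, where 1.59% and 0.824% of all genes were. All 76 were called higher at 190 cells than at 55 cells (8.49% of all genes higher and 10.4% lower) and than at 4 cells (14.8% higher and 42.3% lower). The rule allowed no fall beyond 0.5 and asked for -1 at 190 cells, so these counts are partly set by it. Without 95-cell A the number called higher was 18 (207 of all genes), without 95-cell B 15 (95 of all genes) and without 190-cell C 20 (193 of all genes), against 310 of all genes on all arrays. In 60 genes all 3 190-cell arrays lay above both 95-cell arrays, as in 10.8% of all genes.

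Few of the genes held a plateau after 95 cells. The share of the log2 rise from 55 to 190 cells that had been reached at 95 cells was read in 52 genes. These had a probe above background on every array from 55 cells on. The median share was 71.2%, from 45% to 124% in single genes. The 11 genes that changed by less than 0.5 had a median level of -0.09 at 95 cells and -0.01 at 190 cells. The 33 genes with a later step of at least 2 had medians of -1.80 and 0.68 at these stages. The median step at 95 cells was 3.21 in the 33 and 2.76 in the 11, a difference that was not tested. A gene dim at 95 cells could meet the rule only by rising further, so part of this contrast is built in. In 9 genes the later step was the larger one, of which 2 had a probe above background on every array from 55 cells on.

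The ends of the range of later steps were read on single genes, chosen after their values were seen. WBGene00025585 was at -5.94 and -5.64 at 4 cells and at -6.28, -6.37 and -7.36 at 28 cells. It had levels of -3.81 and -4.60 at 95 cells and 1.87, 2.19 and 3.27 at 190 cells. On the 55-cell arrays it was at -6.11, -6.97 and -7.21, with no probe above background, and the rise in 95-cell over 55-cell embryos was at least 2.32-fold. That of 190-cell over 55-cell embryos was at least 232-fold, and the 190-cell minus 95-cell difference was 6.65. A probe of it was detected on every array of these last stages, but not every probe was. Its E probe averaged -6.45 at 95 cells, where the lowest signals well above background were -4.257 and -6.751. The 6.65 and the 2.32-fold at 95 cells therefore rest partly on signal under background. From 55 to 95 cells its D and E probes differed by 1.65 and 0.72, and the others by 3.07 to 3.99. WBGene00030419 had levels of 0.22 and -0.09 at 95 cells and -0.53, -0.38 and -0.24 at 190 cells, with no overlap. Earlier it had stood at -2.34 and -2.46 at 4 cells and at -1.87, -2.27 and -1.80 at 28 cells. It had stood at -2.58, -2.37 and -1.69 at 55 cells, was detected on all 12 arrays with flags, and its probes both stepped by 2.28 at 95 cells. This gene fell by 0.45 from 95 to 190 cells, the largest fall in the set.

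**Figure D3:**
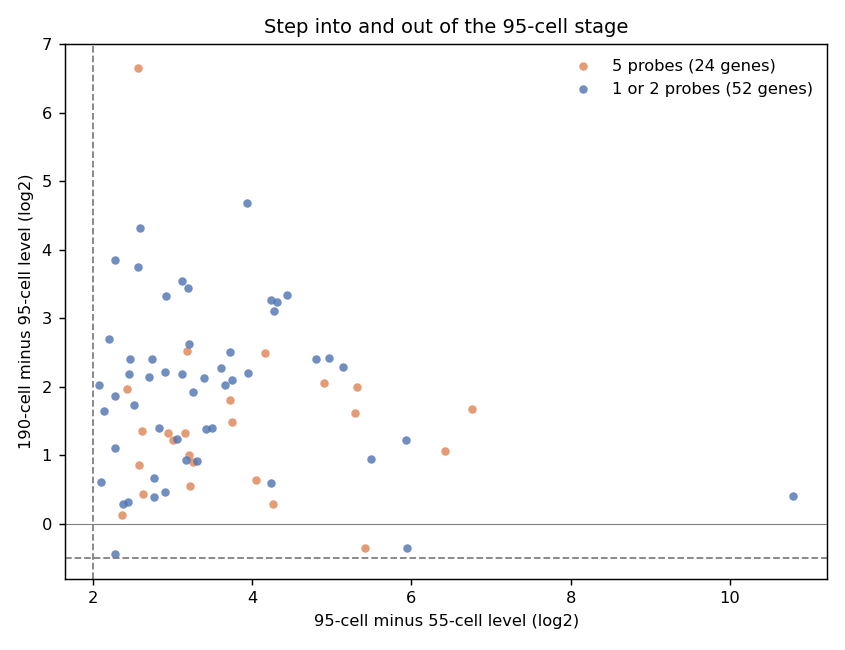
Each point is 1 of the 76 genes, placed by its 95-cell minus 55-cell difference (horizontal axis) and its 190-cell minus 95-cell difference (vertical axis), both log2, with genes of 5 probes in orange and of 1 or 2 probes in blue. Dashed lines are the limits of the rule at 2 and -0.5; 3 points lie below 0 on the vertical axis and 33 at 2 or above.

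**Figure D4:**
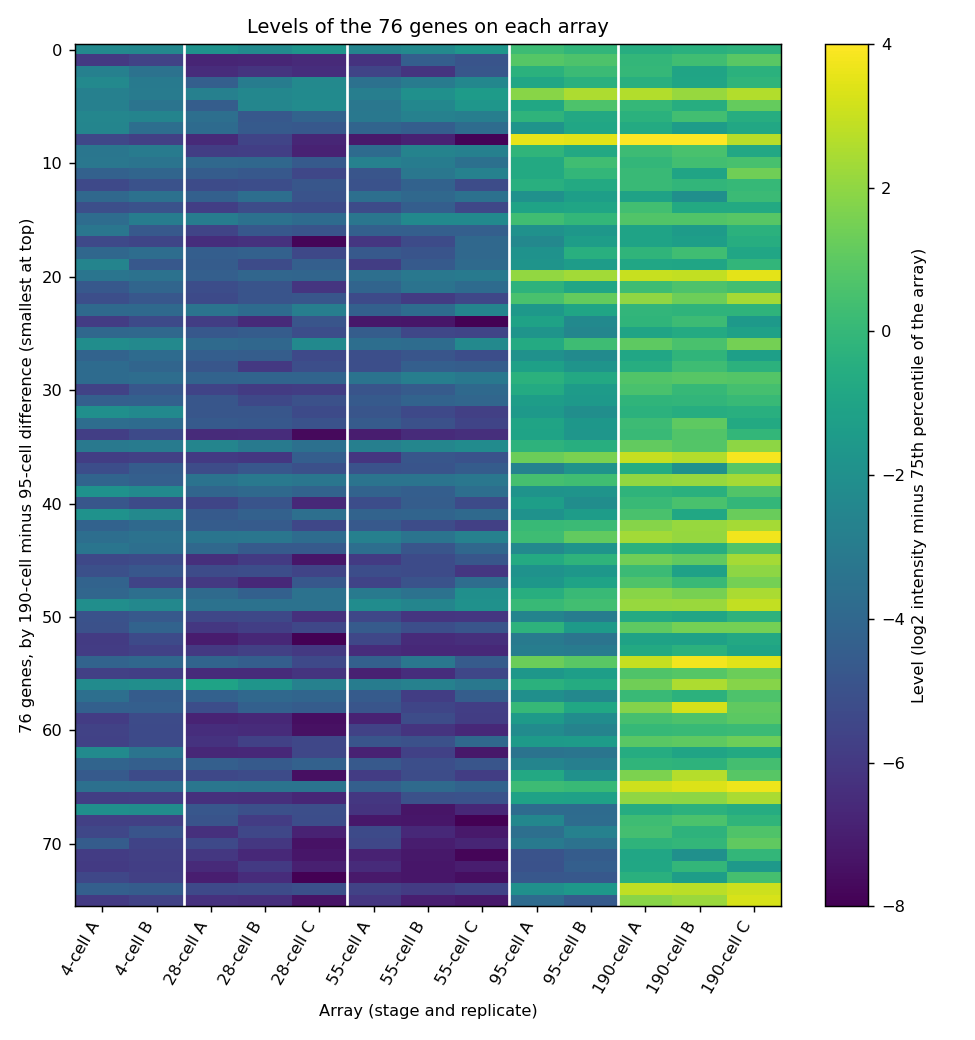
Levels of the 76 genes (rows) on the 13 arrays (columns, in stage order), in log2 over the 75th percentile of the array, with the smallest 190-cell minus 95-cell difference at the top. The columns brighten between 55-cell C and 95-cell A in nearly all rows, and the lowest rows, with later steps of at least 2, brighten again at 190 cells.

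A check on arrays the choice had not used was possible for the 95-cell stage. When the rule was applied without 95-cell A, it chose 78 genes, 75 of them among the 76. On 95-cell A these 78 genes had a median rise over the 55-cell mean of 3.1, against 3.21 on the array that chose them. 70 of the 78 rose by at least 2 on the left-out array, where 2.29% of all genes did. All 78 lay above every 55-cell array, as 45.4% of all genes did on 95-cell A. Without 95-cell B the rule chose 73 genes, 70 of them among the 76. Their median rise was 3.35 on 95-cell B and 3.24 on the array that chose them. 70 of the 73 rose by at least 2 there, where 1.83% of all genes did, and all 73 lay above every 55-cell array, as 18.5% of all genes did. The 55-cell arrays and the other stages were shared by the choice and the check, so it bears on the 95-cell arrays alone.

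**Figure D5:**
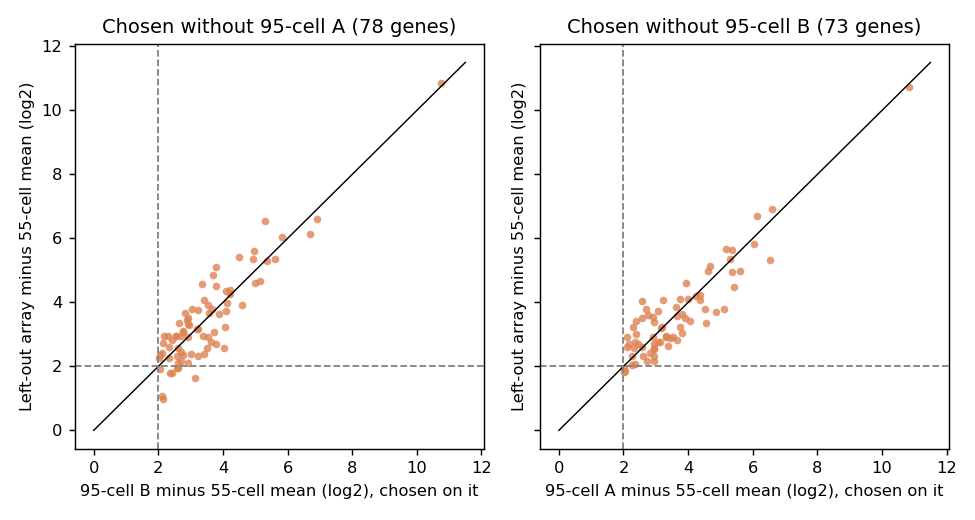
Rise over the 55-cell mean (log2) on the 95-cell array that chose the genes (horizontal axis) and on the 95-cell array left out of the choice (vertical axis), for 78 genes chosen without 95-cell A (left) and 73 without 95-cell B (right). The solid line marks equal rises and dashed lines a rise of 2; 70 genes in each panel lie on or above the horizontal dashed line.

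The step was also read within each scan date, on the same arrays whose means chose the genes, so that a positive value was largely set by the choice. On the first date, 95-cell A minus the mean of 55-cell A and B had a median of 3.31 over the 76 genes and was at least 2 in 73. On the second date, 95-cell B minus 55-cell C had a median of 3.08 and was at least 2 in 72. It was above 0 in all 76 on both dates, while the median of all genes was 0.22 and -0.42. The later difference, of 190-cell minus 95-cell embryos, was 1.53 on the first date and 2.07 on the second. Both differences rest on 1 array of 95-cell embryos each. With scan date as a block in limma, and 28-cell C left out for want of a date, 76 of the 76 were called higher at 95 than at 55 cells and 48 at 190 than at 95 cells, where 957 and 617 of all genes were. Within the 190-cell stage, 190-cell C stood a median of 0.34 above the mean of the other two in the 76 genes, and 0.16 below it in the 5104 genes with a level of -1 or above. The 95-cell arrays differed by a median of 0.02 in the 76 genes, A minus B, with no gene further apart than 1.49.

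Most probes of the 76 genes rose, which the choice on the mean over a gene's probes favours. No share over the probes of all genes was worked out beside the counts that follow. The 76 genes had 223 probes, of which 200 rose by at least 2 from 55 to 95 cells and 213 by at least 1. 10 probes rose by less than 1 or fell, of which 4 had a difference below 0 and 4 were not above background on either 95-cell array. Of 75 genes with several probes, all probes rose by at least 1 in 65 genes and by at least 2 in 54. The median gap between the highest and the lowest probe of a gene was 1.31 and the largest 5.78, beside a median step of 3.20.

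The 76 genes differed from all genes in the number of probes they had. The designers gave each gene 1 to 5 probes, and most genes, 17420 of 19528, have 2. Of the 76 genes, 24 (31.6%) have 5 probes, 51 have 2 and 1 has 1. Among all genes 795 (4.07%) have 5. Put the other way, 3.02% of the genes with 5 probes are in the set, against 0.278% of the 18733 genes with fewer. Read on the A probe alone, the rule chose 87 genes, 50 of them among the 76, and 20 of the 87 (23%) have 5 probes. The A and B probes alone chose 68 genes, of which 16 (23.5%) have 5. Both shares lay between 4.07% and 31.6%, and the part of averaging in the excess was not tested. The labels used here do not say how genes were chosen for 5 probes.

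The excess was not particular to the 95-cell stage. Among 112 genes that an analogous rule found switched on at 55 cells and kept, 37 (33.0%) have 5 probes, and among 16 switched on at 190 cells alone 2 (12.5%) do. Of the 6271 genes at or below -2 at 4 cells and detected on every 190-cell array, 542 (8.64%) have 5 probes. Of the 591 genes called higher at 95 than at 55 cells, 97 (16.4%) do. As a class the 795 genes were brighter than the rest once development was under way: their median level was -4.42 at 4 cells and -2.11, -1.47, -1.52 and -1.62 at the next 4 stages. That of genes with fewer probes was -4.61, then -4.40, -4.58, -4.88 and -4.73. The rule asked for -1 or above at 190 cells, which favours the brighter class. No share of genes with 5 probes was worked out at that limit alone, and its part in the excess was not tested. Within the set, the 24 genes with 5 probes had a median step of 3.24 at 95 cells and of 1.32 after it. For the 52 with fewer probes these medians were 3.14 and 2.11.

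Set beside genes switched on a stage earlier or later, the 76 genes occupied the middle. Median levels at the 5 stages in order were -4.21, -5.02, -4.85, -1.34 and 0.23 in the 76 genes. They were -4.71, -4.95, -1.33, 0.41 and 0.62 in the 112 genes switched on at 55 cells. In the 16 switched on at 190 cells alone they were -3.42, -5.08, -5.06, -3.79 and -0.24. The stage of the main step differs between these sets because the rules ask for it. The 3 sets shared the limit of -1 at 190 cells, where their medians lay between -0.24 and 0.62.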

How the data were processed

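Per the file headers, Agilent Feature Extraction 9.5.3.1 quantified the spots, with columns for background-subtracted signal and statistics of a spatial detrending fit. The values the authors deposited are processed-signal intensity, not scaled between arrays and not in log2, which was taken here. Its 75th percentile ran from 234.8 to 546.6. On 12 arrays the series table equals it (relative tolerance 1e-06), and the series table was used for all 13. Flags (other columns, per the file headers) came from 12 scanner files. There were 0 columns of other series. The table holds 42034 gene probes.

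Levels, the rule and detection are as in the report. Comparisons used limma 3.58.1 in R 4.3.3 (lmFit, eBayes, all 13 arrays, stage as the term, Benjamini-Hochberg over 19528 genes, threshold 0.05). The number of arrays limits precision. The fit was tested on simulated data.

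The genes and lists were chosen with earlier results of these data known. The genes to be named were those with the 2 largest and 2 smallest rises at 95 cells, since no table names them; others are marked in the text. The planned lists of tissue genes and promoter motifs were not used here for the same reason. Analogous rules defined the earlier and later sets. For the earlier set the step was at least 2 from 28 to 55 cells, with no later fall beyond 0.5. For the later set, levels rose by less than 1 over the 4-cell level up to 95 cells and then rose by at least 2. Both kept the limits of -2 at 4 cells and -1 at 190 cells. Replicate letters were checked for pairing, and no slide held over 1 array. Scaling, background correction, probe choice, arrays left out, scan date and thresholds were varied.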

Additional observations from a re-analysis of the deposited data

How the results depend on the processing

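The rule gave 76 genes. Under other settings, it gave 10 genes (6 shared) when arrays were scaled on the 14580 probes above background on all arrays with flags, which moves levels by -2.72 on average. With those levels moved back by that constant, an alternative added after seeing the data, it gave 49 genes (35 shared). Normexp with an offset of 50, without 28-cell C and run on the median spot signal because the mean is not in the files, gave 27 genes (6 shared). Under it 55 members (588 of all genes), against 34 (310), were called higher at 190 than at 95 cells, and the median rise at 95 cells was 1.59, against 3.20. The offset shrinks log2 differences between dim signals by construction, so the limits of the rule are not like for like there. The median rise was 3.72 on the A probe alone and 3.48 with arrays centred on the median gene, also added later. Leaving out the 4 arrays whose tags contradict their titles keeps 1 array at 95 cells, assumed to vary like other stages, and 11 members (112 of all genes) were called higher at 190 than at 95 cells. The causes were not tested. Over the 12 settings that each count was run under, 9 left the number of genes within 1.5 times and all 12 the count of 75 members called at 95 cells. A like number did not always mean the same genes. Under these 9 settings the shared genes ran from 50 of 87 (A probe alone) to all 76 (outlier-flagged probes left out). Quantile normalization gave 73 genes (57 shared). The planned gene lists and promoter motifs were not run. Leaving out each array gave 72 to 84 genes (at least 67 shared), 60 to 75 members called at 95 cells, 15 to 35 called at 190 cells and median rises of 3.17 to 3.27.

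Over all genes, 591 were called higher at 95 than at 55 cells, from 316 to 644 without 1 array and from 174 to 1040 under other settings. For 190 vs 95 cells the count was 310, from 95 to 342 and from 112 to 625. Same-lettered arrays of different stages deviated together in 13 of 23 pairs (r over 0.1; range -0.58 to 0.63), and 3 of 13 arrays correlated best with an array of their own letter, so the letters were not taken to pair the samples. The 3 pairs of letter C did deviate together (0.47 to 0.63). With the replicate block 76 and 35 members were called at 95 and 190 cells (643 and 321 of all genes). A gene was counted as detected where any of its probes was above background. On that count, detection limits the size of the rise for 24 genes. Of these, 8 were undetected at 55 cells and 16 detected on only 1 or 2 arrays there. Some other genes, such as WBGene00029570, also had single probes under background at 55 cells.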
